A study of Mus musculus with 59 samples.

Results

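The genes described here belong to the families of the membrane trafficking machinery. They were taken by name alone, as every gene whose mouse symbol starts with Rab, Stx, Vamp, Syt, Vps, Snx, Sec or Chmp followed by a digit, or with Copa, Copb, Cope, Copg or Copz. The rule found 60 of the 4484 genes in the table: 22 Rab genes, 9 Vps genes, 8 sorting nexins (Snx), 7 Sec genes, 5 syntaxins (Stx), 4 Chmp genes, 3 Vamp genes and 2 synaptotagmins (Syt). No gene of the Cop names was among the rows analysed, and the same rule matches 229 symbols in the annotation. The rule uses no measured value, although it was set with earlier results of these data known, and the families hold genes that share a name more than a function, such as the Rab11 effectors Rab11fip3, Rab11fip4 and Rab11fip5 and the lipid-binding Sec14l1 and Sec14l2.

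The libraries were RNA sequencing libraries of homogenised medial prefrontal cortex from adult wild-type C57BL/6J mice, an inbred strain, killed every 4 h through 24 h. There were 30 male and 29 female libraries, in groups of 5 at each of zeitgeber times (ZT) 2, 6, 10, 14, 18 and 22 for males and for females, except the ZT10 females, of which there were 4. ZT0 is lights on by convention; the light schedule is not given in the labels, and ZT14, ZT18 and ZT22 are called dark here, against ZT2, ZT6 and ZT10, called light. No mouse carried an allele or received an agent that the labels name, the titles do not settle that every library is a separate mouse, and p-values therefore measure the spread between libraries.

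Vesicles carry membrane and protein between the compartments of a cell. Coats such as COPII pick cargo and bud the vesicle, Rab GTPases mark the membrane and recruit motors and tethers, and SNARE proteins (the syntaxins and VAMPs) on facing membranes zip together to fuse them. In neurons the same machinery fills the synapse: synaptic vesicles carry VAMP2 and Rab3a, meet a syntaxin on the plasma membrane and fuse when calcium binds a synaptotagmin. Endosomes sort what is taken back up, through retromer and sorting nexins toward recycling, or through the ESCRT complexes, which the Chmp proteins belong to, toward lysosomes.

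Library size in the table was 6317420 to 13325019 reads (median 9015221), but without the 6 most abundant noncoding genes only 1009789 to 4253935 remained. The deposited values are log2 of a scaled read number plus 1, and all levels below are on that scale unless a level per kb is named. The 11 libraries whose titles carry the serial numbers 49 to 60 differed from the 48 that carry 1 to 48. On principal component 1 (24.5% of the variance) they scored 0.088 to 0.262, and the others -0.286 to 0.206. The glutamatergic neuron markers Cux2 and Slc17a7 summed to 21531 or more scaled reads in every library. Of 8 genes listed for striatal neurons only Penk and Tac1 were among the rows analysed, and they summed to 640.15 or fewer. Their sum was not read as a measure of striatal tissue. None of the endothelial, choroid plexus or blood markers listed was among the rows analysed. In a homogenate, fewer cells of a type and less RNA per cell cannot be told apart.

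The neuronal fusion machinery led the 60 genes in abundance. Scaled reads were divided by the exonic length of each gene and are given as scaled reads per kb of exon. This length is the union of all annotated exons, so the order of genes also depends on the annotation. Vamp2 (ENSMUSG00000020894, chromosome 11, 69088490 to 69092384, GRCm38), the vesicle SNARE of synaptic vesicles, had a median of 3342 per kb over the 59 libraries and a range of 1565 to 5281. Rab3a, the Rab GTPase of synaptic vesicles, had a median of 3109 per kb, from 1854 to 4256. Stx1a, a plasma membrane syntaxin of the synapse, had a median of 1770 per kb. The ranges of these 3 genes overlapped one another. Their order is that of the medians only, and they were not compared within each library.

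**Figure D1:**
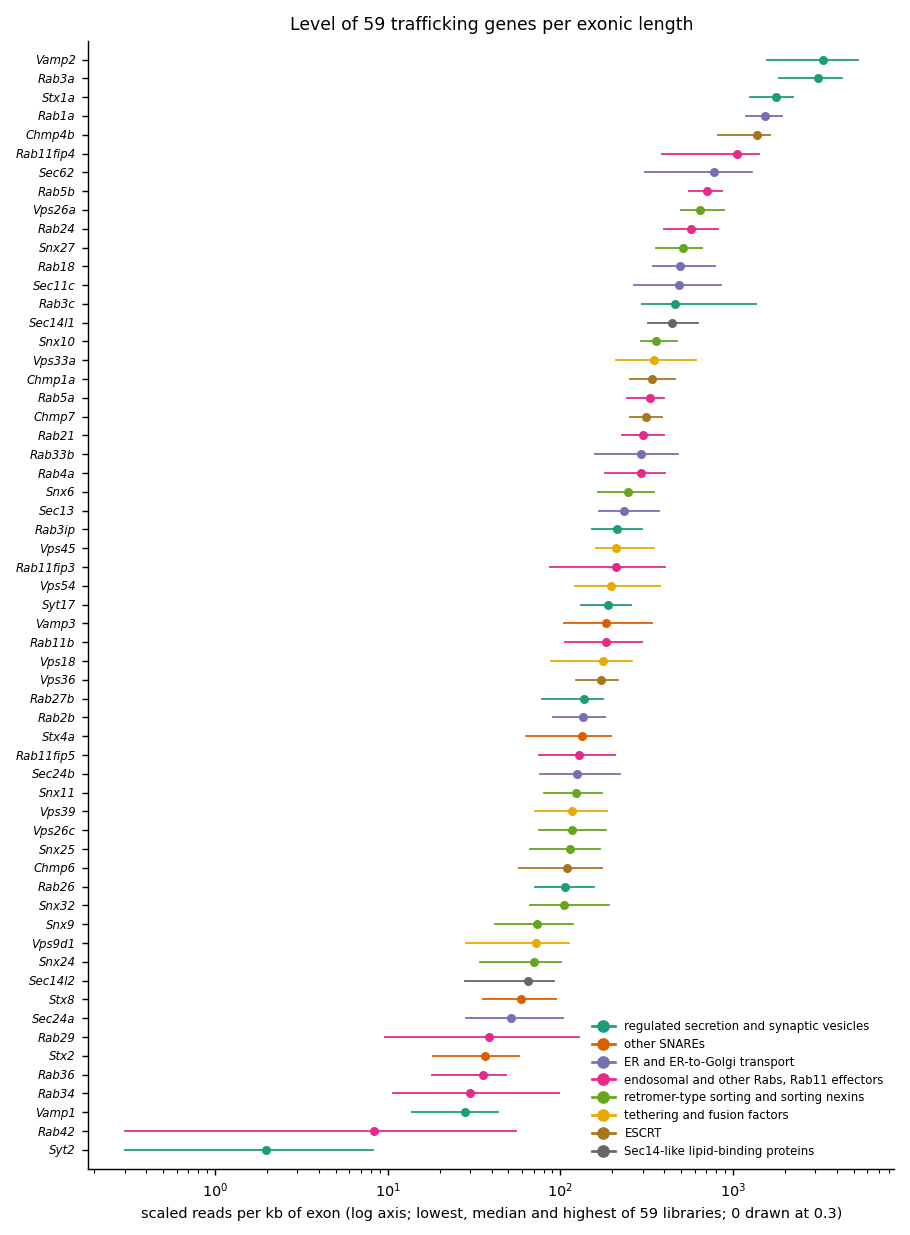
Level of 59 of the 60 genes as scaled reads per kb of exon on a log axis, with the median as a point and the lowest and highest of the 59 libraries as the ends of the line; colours give the role, and 0 is drawn at 0.3. Vamp2 and Rab3a lie at the top and Rab42 and Syt2 at the bottom.

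Rab1a, which directs transport from the endoplasmic reticulum (ER) to the Golgi, had a median of 1540 per kb, and Chmp4b, the main filament subunit of ESCRT-III, had 1378 per kb. Rab11fip4, an effector of the recycling-endosome Rab11, had 1060 per kb, and Sec62, part of the ER translocation machinery, had 779 per kb. Each of these was the highest or among the highest of its family. The highest sorting nexin was Snx27, which returns receptors from endosomes to the plasma membrane together with retromer, at 516 per kb, and the highest Vps gene was the retromer subunit Vps26a at 643 per kb. Syt17, an atypical synaptotagmin without a membrane-spanning anchor, had a median of 190 per kb.

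At the other end, Syt2, a fast calcium sensor of release, had a median of 1.98 per kb and no read in 4 libraries. Rab42 had a median of 8.30 per kb and no read in 7 libraries. With medians of 5 and 2 reads, nothing about the day course of these 2 genes can be read from single libraries. All 60 genes reached 10 reads in at least 4 libraries and were tested.

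The first question was which of these genes followed a 24 h rhythm. A cosine of 24 h was fitted over all 59 libraries with sex as a covariate in limma, the Benjamini-Hochberg adjustment ran over the 4273 genes tested, and a gene was called at an adjusted p under 0.05. Among all genes tested 1.90% were called, and among the 60 trafficking genes 2 were called, or 3.33%: Sec14l1 and Syt17, both with a peak between ZT12 and ZT24, where 1.40% of all genes were called with such a peak. At an unadjusted p under 0.05 there were 5 of the 60, or 8.33%, against 11.4% of all genes tested. Both shares lie near those of the whole table. The amplitude (from mean to peak, in log2 units) had a median of 0.061 over the 60 genes and 0.076 over all genes tested. Fitted peaks were spread over the day, with 6 genes from ZT0, 11 from ZT4, 11 from ZT8, 10 from ZT12, 13 from ZT16 and 9 from ZT20, counted in steps of 4 h.

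Sec14l1 (ENSMUSG00000020823, chromosome 11, 117115168 to 117159268) encodes a protein with the lipid-binding fold first described in yeast Sec14. Its lowest, median and highest values were 11.17, 11.54 and 11.69 at ZT2, 11.22, 11.68 and 11.88 at ZT6, and 11.33, 11.73 and 11.89 at ZT10. They were 11.43, 11.88 and 12.13 at ZT14, 11.52, 11.72 and 12.12 at ZT18, and 11.19, 11.45 and 11.77 at ZT22. Sec14l1 was highest at ZT14 and lowest at ZT22 and ZT2, while the libraries of every pair of times overlapped. The amplitude was 0.18 ± 0.04 (SE), which makes the fitted peak 1.27 times the trough, peaking at ZT13.5, and limma gave 0.0133 as its adjusted p (Benjamini-Hochberg). The 24 h component at that phase, which was fitted on the same libraries, lay between 0.01 and 0.30 in the 5 runs of 12 serial numbers. This is a description only, since 8 genes that were not called were also positive in all 5 runs. No single library decided the call, as the adjusted p stayed between 0.00655 and 0.0311 with each library left out in turn. Without the libraries numbered 49 to 60 it was 0.041, and with reads scaled to library totals, a scaling under which 3 of all genes tested were called, it was 1. Library totals are mostly reads of the 6 most abundant noncoding genes.

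Syt17 (ENSMUSG00000058420, chromosome 7, 118380717 to 118448222) peaked later in the dark phase. Its lowest, median and highest values were 9.55, 9.89 and 10.11 at ZT2, 9.58, 9.95 and 10.19 at ZT6, and 9.52, 9.80 and 10.003 at ZT10. They were 9.43, 9.73 and 10.12 at ZT14, 9.80, 9.99 and 10.29 at ZT18, and 9.96, 10.11 and 10.38 at ZT22. The ZT22 libraries were the highest and the ZT10 and ZT14 libraries the lowest, again with overlap. The amplitude was 0.15 ± 0.04 (SE), a fitted peak 1.23 times the trough, peaking at ZT22.2, and limma gave 0.0379 as its adjusted p (Benjamini-Hochberg). The 24 h component at that phase lay between 0.10 and 0.21 in the 5 runs of serial numbers, with the same limit. The call was lost when 1 library was left out in 19 of 59 cases, with adjusted p-values of 0.0501 to 0.0767, and without the libraries numbered 49 to 60, with an adjusted p of 0.189 and an amplitude of 0.14. Those 19 libraries were ZT6 female replicate 5; ZT10 male replicates 3, 4 and 5 and female replicate 2; ZT14 male replicate 1 and female replicates 1, 2 and 3; ZT18 male replicate 5 and female replicate 3; and ZT22 male replicates 1, 3, 4 and 5 and female replicates 1, 2, 4 and 5. With reads scaled to library totals the adjusted p was 1.

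**Figure D2:**
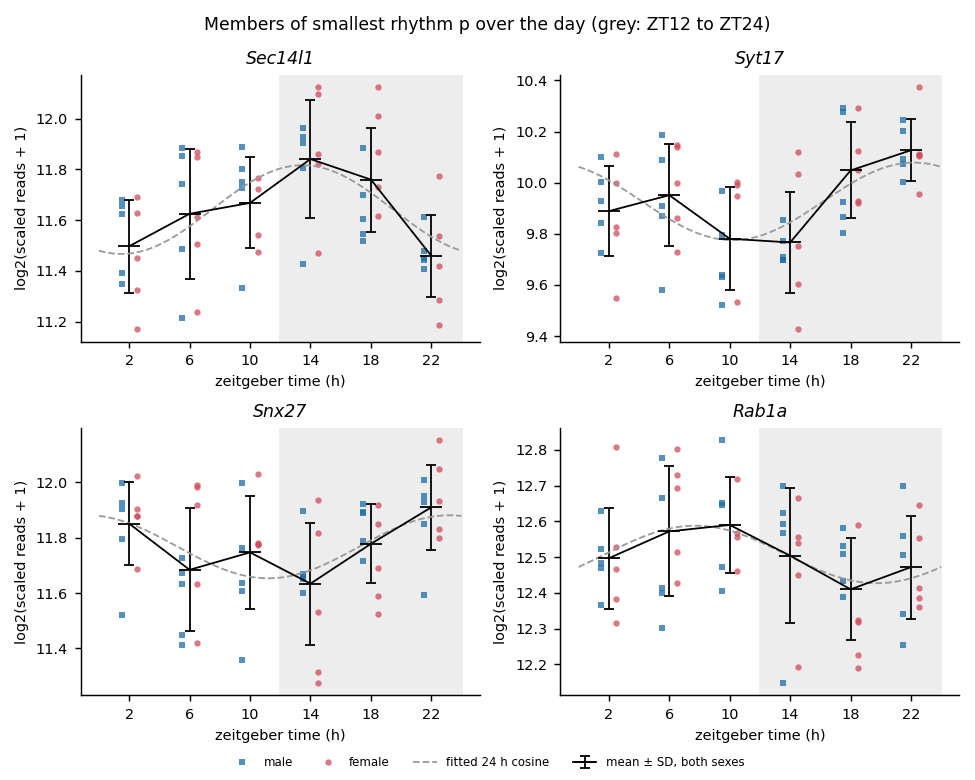
Values of Sec14l1, Syt17, Snx27 and Rab1a, as log2 of scaled reads plus 1, against zeitgeber time in h, with each male library as a square left of each female library as a circle, the mean ± SD of both sexes in black and the fitted 24 h cosine dashed. Sec14l1 is highest at ZT14 and Syt17 and Snx27 at ZT22, with wide overlap between times.

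Snx27 (ENSMUSG00000028136, chromosome 3, 94497544 to 94582716) and Rab1a (ENSMUSG00000020149, chromosome 11, 20201432 to 20226856) came next by p. The median of Snx27 was 11.89 at ZT2, 11.65 at ZT6, 11.77 at ZT10, 11.66 at ZT14, 11.82 at ZT18 and 11.93 at ZT22, and single libraries ranged from 11.27 to 12.15. Its amplitude was 0.11 ± 0.04 (SE) peaking at ZT23.2, and its adjusted p was 0.182 (limma, Benjamini-Hochberg). The median of Rab1a was 12.48 at ZT2, 12.59 at ZT6, 12.57 at ZT10, 12.56 at ZT14, 12.41 at ZT18 and 12.46 at ZT22, with single libraries from 12.15 to 12.83. Its amplitude was 0.080 ± 0.031 (SE) with a peak at ZT7.73 and an adjusted p of 0.375. Neither gene passed the threshold in this fit, but with the run of serial numbers as a replicate block Snx27 did, where limma gave an amplitude of 0.12 and 0.0301 as its adjusted p (Benjamini-Hochberg). The libraries of all times overlapped in both.

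By role, the other genes stood as follows. In regulated secretion 1 of 11 genes was called, Syt17. Rab26, a GTPase of vesicle membranes, reached 0.14 ± 0.06 around a peak at ZT14.4 (adjusted p = 0.383, limma, Benjamini-Hochberg), and Vamp1, another synaptic VAMP, had 0.14 ± 0.06 with a peak at ZT13.4 (0.451). Rab3ip, which activates Rab8, had 0.068 ± 0.037, and the rarely detected Syt2 had 0.45 ± 0.27. The abundant release genes had small fitted amplitudes. Rab3a had an amplitude of 0.017 ± 0.051, Stx1a 0.016 ± 0.041 and Vamp2 0.050 ± 0.080. The medians of Rab3a at the 6 times lay between 12.59 and 12.95.

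Vamp2 lies next to a clock gene. On chromosome 11, 2833 bases separate its end from the start of Per1, a repressor of the circadian clock, which is on the same strand. Per1 had an amplitude of 0.45 ± 0.05, a peak at ZT14.9 and 9.74e-08 as its adjusted p (limma, Benjamini-Hochberg), whereas the adjusted p of Vamp2 was 0.996. The median of Vamp2 was 13.59 at ZT2, 13.82 at ZT6, 13.70 at ZT10, 13.42 at ZT14, 13.65 at ZT18 and 13.66 at ZT22. Its lowest median fell at ZT14, while its fitted peak, at ZT22.5, came from an amplitude smaller than its SE. Single libraries of Vamp2 ran from 12.54 to 14.30, and all times overlapped. The rhythms of the neighbours were not tested against each other.

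Of the 9 genes of the ER and of ER-to-Golgi transport none was called. Sec24a, a COPII subunit that picks cargo, reached 0.14 ± 0.07 at ZT18.1 (adjusted p = 0.621, limma, Benjamini-Hochberg), and Sec62 had 0.052 ± 0.089. Of the 13 endosomal and other Rab genes and Rab11 effectors none was called either. Rab24, a GTPase linked to autophagy, had 0.11 ± 0.05 with a peak at ZT12.6. Rab34, known for its part in cilium formation, had 0.25 ± 0.13 with a peak at ZT12.8 from a median of 27 reads. Rab4a and Rab5b, of recycling and early endosomes, had 0.098 ± 0.051 and 0.060 ± 0.031, Rab5a had 0.045 ± 0.028, and Rab36 had 0.11 ± 0.06. Adjusted p-values of these Rab genes were 0.592 or higher.

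Among the 10 genes of retromer-type sorting and the sorting nexins none was called without the block. Snx6, which works with retromer on the way from endosomes to the Golgi, had 0.087 ± 0.037 with a peak at ZT2.25, Vps26a had 0.055 ± 0.035 and Snx10 had 0.041 ± 0.026. None of the 6 tethering and fusion factors was called, and Vps9d1, named for a domain that activates endosomal Rabs, had the largest amplitude there, 0.16 ± 0.08 with a peak at ZT2.01. None of the 5 ESCRT genes was called, and their amplitudes were between 0.0083 and 0.061; Chmp4b had 0.029 ± 0.037. Vamp3, a VAMP of recycling endosomes, had 0.11 ± 0.07, and none of the 4 SNAREs outside regulated secretion was called. Of the genes whose amplitudes are given one by one here, Snx6 had the lowest adjusted p, 0.499 (limma, Benjamini-Hochberg), and Snx27, at 0.182, was lower.

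**Figure D3:**
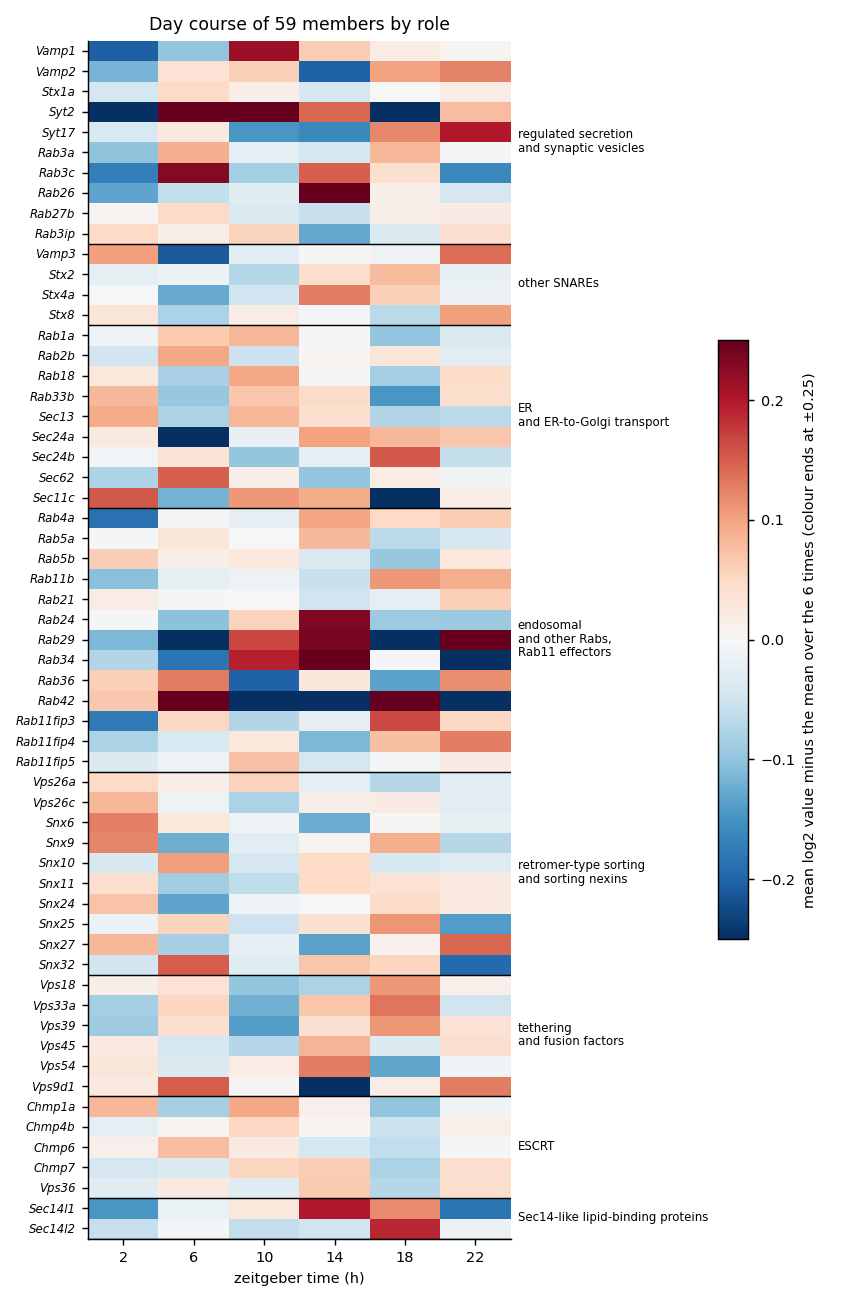
Mean log2 value of 59 of the 60 genes at the 6 zeitgeber times, minus its mean over the times, in rows grouped by role; red is higher and blue lower, and the colour ends at ±0.25. The called Syt17 is reddest at ZT22 and Sec14l1 at ZT14, and strong colours at several times also belong to genes of few reads such as Rab42, Rab29, Rab34 and Syt2.

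The first 2 principal components held 24.5% and 7.18% of the variance. With both as covariates the same test called 11.7% of all genes and 9 of the 60, or 15%. These were Sec14l1 (adjusted p = 2.42e-07, limma, Benjamini-Hochberg), Syt17 (0.00121), Snx27 (0.00199), Sec24a (0.0132), Rab1a (0.0162), Rab24 (0.036), Rab3c (0.045), Vamp3 and Sec62. Vamp3 and Sec62 passed only just, with adjusted p-values that round to 0.05 (limma, Benjamini-Hochberg). Their amplitudes were between 0.072 and 0.16. Sec14l1 had 0.16 ± 0.02 and a peak at ZT13.3, Syt17 0.16 ± 0.03 and ZT22.4, and Snx27 0.095 ± 0.020 and ZT22.7, so these 3 genes kept their size and phase while the error became smaller. The components were computed from the same values, the rhythms included, so the calls with covariates are given beside those without and not in their place.

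**Figure D4:**
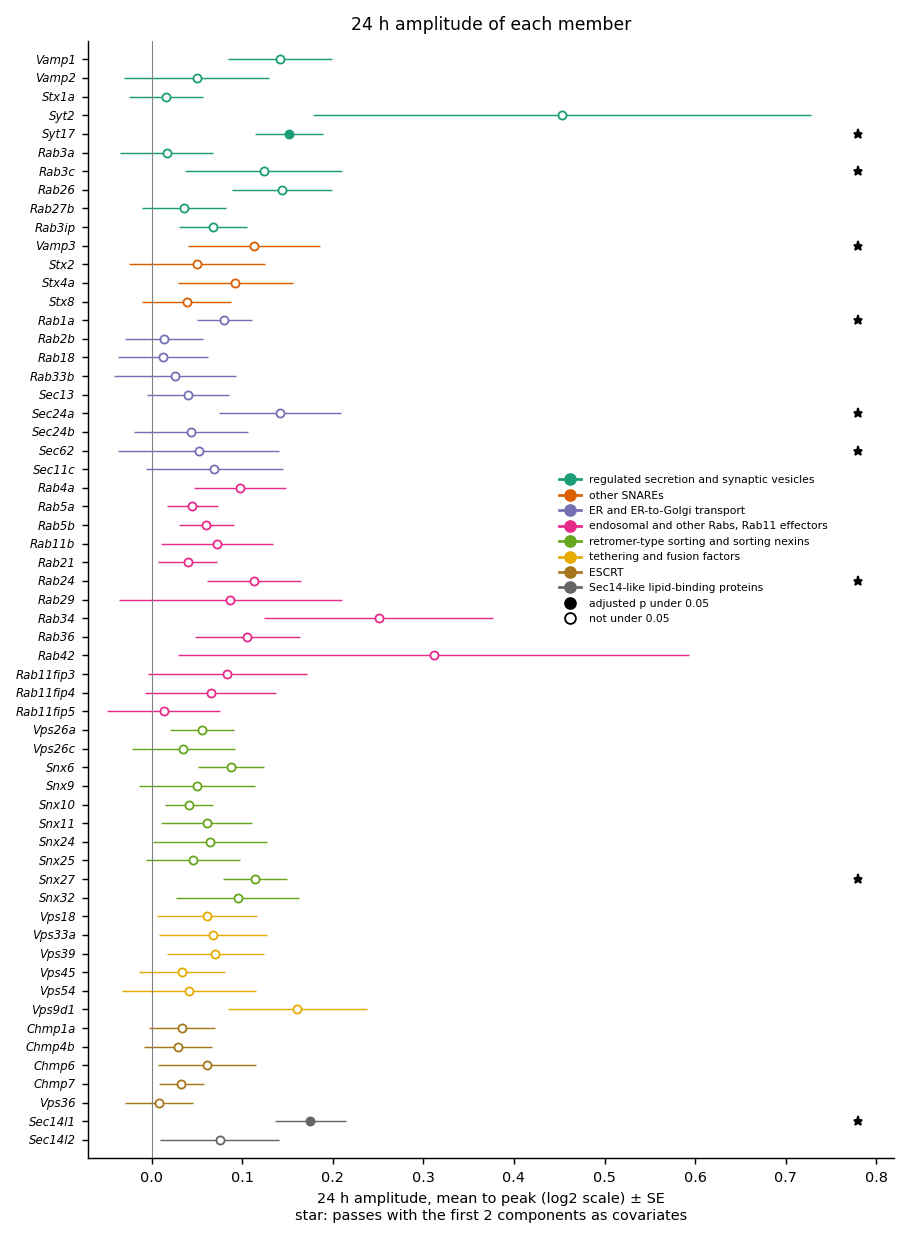
The 24 h amplitude of 59 of the 60 genes, from mean to peak in log2 units, with ± SE; filled points have an adjusted p under 0.05, and a star marks genes that pass with the first 2 components as covariates. The filled points are Sec14l1 and Syt17, and the 9 stars include both.

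A test of any difference between the 6 times, with no assumed shape, called 1.05% of all genes and 1 of the 60 trafficking genes, or 1.67%. At an unadjusted p under 0.05 there were 4 of the 60, against 9.76% of all genes. The called gene was Syt17, whose mean at ZT22 exceeded that at ZT14 by 0.36 (adjusted p = 0.0374, limma, Benjamini-Hochberg). Sec14l1 had a range of 0.38, between ZT14 and ZT22, and an adjusted p of 0.0649, which was 0.0148 with the replicate block (limma, Benjamini-Hochberg). The call for Syt17 was lost with 1 library left out in 15 of 59 cases, where the adjusted p reached 0.0692 at most, and with reads scaled to library totals the p was 1. The 15 were ZT10 male replicates 3, 4 and 5 and female replicate 2; ZT14 male replicates 1, 2 and 3 and female replicates 1, 2 and 3; ZT18 male replicates 2 and 5; and ZT22 male replicates 4 and 5 and female replicate 1. Without the libraries numbered 49 to 60 the adjusted p was 0.162.

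In each sex alone none of the 60 genes was called, where male libraries gave calls for 0.164% of all genes and female libraries for 0.328%. At an unadjusted p under 0.05 there were 5 of the 60 in males (7.54% of all genes) and 3 in females (8.89%), and limma voom on the recovered reads also called none in either sex. In males Syt17 reached 0.19 ± 0.05 at ZT22.4 (adjusted p = 0.245, limma, Benjamini-Hochberg), Snx27 had 0.14 ± 0.04 at ZT20.9 (0.494) and Syt2 had 0.999 ± 0.335 at ZT9.71 (0.528). In females Sec14l1 had 0.22 ± 0.06 at ZT14.2 (0.292), Rab26 had 0.24 ± 0.08 at ZT13.2 (0.509) and Rab1a had 0.12 ± 0.05 at ZT6.77 (0.525). Sec14l1 in males had 0.14 ± 0.05 at ZT12.3, so both sexes had their fitted peak around the start of the dark phase.

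The difference of rhythm between males and females was tested itself. It called 0.00% of all genes tested and none of the 60, of which also none had an unadjusted p under 0.05, against 4.21% of all genes; limma voom called none. The 3 smallest p-values belonged to Rab3ip, Vamp1 and Snx24, with an amplitude of the difference of 0.18 ± 0.07, 0.27 ± 0.11 and 0.30 ± 0.12 and 0.741 as the adjusted p of each (limma, Benjamini-Hochberg). Male and female levels were compared with time as a factor. Of all genes 0.0234% were called and of the 60 none, at an unadjusted p under 0.05 also none, against 2.43% of all genes, and with limma voom none. Stx4a, a plasma membrane syntaxin, was at -0.16 (95% interval -0.34 to 0.025), Rab3ip at -0.090 (-0.20 to 0.016) and Snx6 at 0.085 (-0.021 to 0.19), each as male minus female, with an adjusted p of 0.999. A difference between the sexes larger than these intervals was therefore not seen in those genes.

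Dark minus light compares ZT14, ZT18 and ZT22 with ZT2, ZT6 and ZT10. It called 0.702% of all genes and none of the 60, 2 of which had an unadjusted p under 0.05, against 8.35% of all genes; limma voom called none. Rab1a was at -0.091 (95% interval -0.18 to -0.0012, adjusted p = 0.581, limma, Benjamini-Hochberg), Syt17 at 0.10 (0.00075 to 0.21, 0.588) and Rab4a at 0.14 (-0.0057 to 0.29, 0.623). The median difference over the 60 genes was 0.018, against -0.00056 over all genes tested. Terms of 12 h added to the 24 h model called 0.00% of all genes and none of the 60, 5 of which had an unadjusted p under 0.05 against 6.81% of all genes, and limma voom called none. The smallest 3 p-values were those of Rab29, Syt17 and Sec11c, with 12 h amplitudes of 0.37 ± 0.12, 0.10 ± 0.03 and 0.19 ± 0.07 and the same adjusted p in all 3, at 0.625 (limma, Benjamini-Hochberg).

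The trafficking genes were also compared between the libraries numbered 49 to 60 and the rest. The libraries numbered 49 to 60 scored higher on average on the first component of the same values, with overlap (0.088 to 0.262 against -0.286 to 0.206). Because the split was seen in the values it is tested on, its p-values can be too small and its intervals too narrow. These and the counts of groups below describe the split and are no independent test of it. Each time and sex group holds libraries of all 5 runs of 12 serial numbers, except the ZT10 females, whose number 54 is absent, so the runs and the groups can be told apart. What the numbers stand for is not given. With the group as a covariate, the libraries numbered 49 to 60 differed from those numbered 1 to 48 in 54.0% of all genes tested and in 43 of the 60, or 71.7%. Of these, 20 were higher (33.3%, against 23% of all genes) and 23 lower (38.3%, against 31%). The median size of the difference, without its sign, was 0.28 over the 60 genes and 0.26 over all genes tested. Scaling decides how the calls split: with reads scaled to library totals the median over all genes moved to 0.36, compared with -0.054 here, and 31 of the 60 were higher and 0 lower. Under that scaling the 20 higher genes were all called higher, while 18 of the 23 lower genes turned to a positive difference and none of the 23 was called in either direction. With TMM factors (scaling by trimmed means) 23 were higher and 18 lower, and with limma voom 23 higher and 19 lower. Rab21, Snx6, Stx2 and Vps36, lower at the deposited scale, were called with neither, and Chmp7 was not called with TMM factors. Rab5a, Sec14l2 and Vamp1 were called with both but not at the deposited scale.

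In regulated secretion 6 of 11 genes were higher in the libraries numbered 49 to 60 and none was lower. Vamp2 had a lowest, median and highest value of 13.84, 14.12 and 14.30 in the 11 libraries numbered 49 to 60, against 12.54, 13.59 and 14.07 in the 48 others. The difference was 0.59 (95% interval 0.35 to 0.84), a 1.51-fold higher level, and its adjusted p was 8.42e-05 (limma, Benjamini-Hochberg), and the late library was above the mean of the others in 11 of 11 groups. Rab3c, a close relative of Rab3a, was higher by 0.55 (0.27 to 0.84), with values of 12.63 to 13.54 against 11.80 to 14.002. Rab3a, Stx1a and Rab27b, a GTPase of vesicle docking, were among the 6 too, with differences of 0.38, 0.33 and 0.22. The ranges of the 2 sets of libraries overlapped in Vamp2 and Rab3c. In Vamp2 the set numbered 49 to 60 lay at the upper end. In Rab3c it lay within the range of the others, which held the highest library.

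Among the 13 endosomal and other Rab genes and Rab11 effectors, 4 genes were higher in the libraries numbered 49 to 60, namely Rab11b and the Rab11 effectors Rab11fip3, Rab11fip4 and Rab11fip5. Rab4a, also of recycling endosomes, was at 0.094 and not called at the deposited scale. With library totals Rab4a was called higher too, at 0.51 (adjusted p = 0.0159, limma, Benjamini-Hochberg). Rab11fip3 had 10.78, 10.97 and 11.44 as lowest, median and highest value in the libraries numbered 49 to 60, against 9.25, 10.36 and 11.10 in the others, a difference of 0.70 (0.42 to 0.97) or 1.62-fold. Rab11b differed by 0.53, Rab11fip4 by 0.48 and Rab11fip5 by 0.47, with adjusted p-values of 1.03e-05, 0.000665 and 7.65e-05 (limma, Benjamini-Hochberg). All 4 were higher in 11 of 11 groups. Rab34, Rab24, Rab5b and Rab21 were the 4 lower genes, led by Rab34 with -0.62 (-1.06 to -0.19) and Rab24 with -0.41, and with reads scaled to library totals none of the 4 was called and only Rab34 stayed below 0, at -0.21.

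All 9 genes of the ER and of ER-to-Golgi transport differed, 3 higher and 6 lower. Sec62 had 11.80, 12.23 and 12.45 in the libraries numbered 49 to 60, against 10.40, 11.57 and 12.26 in the others, a difference of 0.68 (0.39 to 0.97). Sec11c, a catalytic subunit of the signal peptidase, had 10.99, 11.11 and 11.38 against 10.83, 11.81 and 12.50, a difference of -0.60 (-0.81 to -0.38). The COPII cargo subunits went apart, with Sec24b at 0.40 (0.20 to 0.60) and Sec24a at -0.42 (-0.65 to -0.20). With reads scaled to library totals none of the 6 lower genes was called. Sec24a was then at -0.0083 and Sec11c at -0.18, while Rab1a, Rab18, Sec13 and Rab33b turned positive, at 0.21, 0.13, 0.086 and 0.029.

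Retromer and the sorting nexins were mostly lower at the deposited scale, 6 of 10 genes against 1 higher, a direction that all 6 lost with reads scaled to library totals, where their differences were positive and not called. Snx24, Snx11, Vps26c, Vps26a, Snx27 and Snx6 were at -0.38, -0.35, -0.33, -0.25, -0.22 and -0.17, and Snx32, a relative of Snx6, was at 0.27. Vps26a, the retromer subunit, had 10.48, 10.65 and 10.81 in the libraries numbered 49 to 60, against 10.56, 10.89 and 11.31 in the others. Its late library was below the mean of the others in 11 of 11 groups.

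The tethering and fusion factors all differed, 4 higher and 2 lower. Vps33a, Vps18 and Vps39, subunits of the HOPS complex that tethers late endosomes to lysosomes, were all among the higher genes, with 0.42 (0.22 to 0.61), 0.30 (0.11 to 0.49) and 0.30 (0.12 to 0.48); they are named for their shared complex, after their values were seen. Vps54, a subunit of the GARP tether of the trans-Golgi, was at -0.55 (-0.78 to -0.32), with 9.83, 10.09 and 10.29 in the libraries numbered 49 to 60 against 9.83, 10.63 and 11.47 in the others. Vps45, which works with endosomal SNAREs, was at -0.28. Under library totals Vps54 was at -0.14 and Vps45 at 0.13, neither of them called. Of the other SNAREs Vamp3 was at -0.50 (-0.73 to -0.27) and Stx2 at -0.32, and none of the 4 was called higher at the deposited scale. With reads scaled to library totals Stx4a was called higher, at 0.59 (adjusted p = 0.00731, limma, Benjamini-Hochberg). Vamp3 and Stx2 were then at -0.080 and 0.090, and neither was called. Of the 5 ESCRT genes Chmp4b was higher by 0.19 (0.061 to 0.32), and Chmp1a, Chmp7 and Vps36 were lower, at -0.18, -0.13 and -0.15. These 3 lower ESCRT genes turned positive with library totals, at 0.24, 0.29 and 0.27, and were not called. Sec14l1 was higher by 0.19 (0.058 to 0.33), and Syt17 was at 0.082 (-0.049 to 0.21) without passing the test (adjusted p = 0.294, limma, Benjamini-Hochberg). Syt17 was called higher with library totals, at 0.499 (adjusted p = 0.00715, limma, Benjamini-Hochberg).

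**Figure D5:**
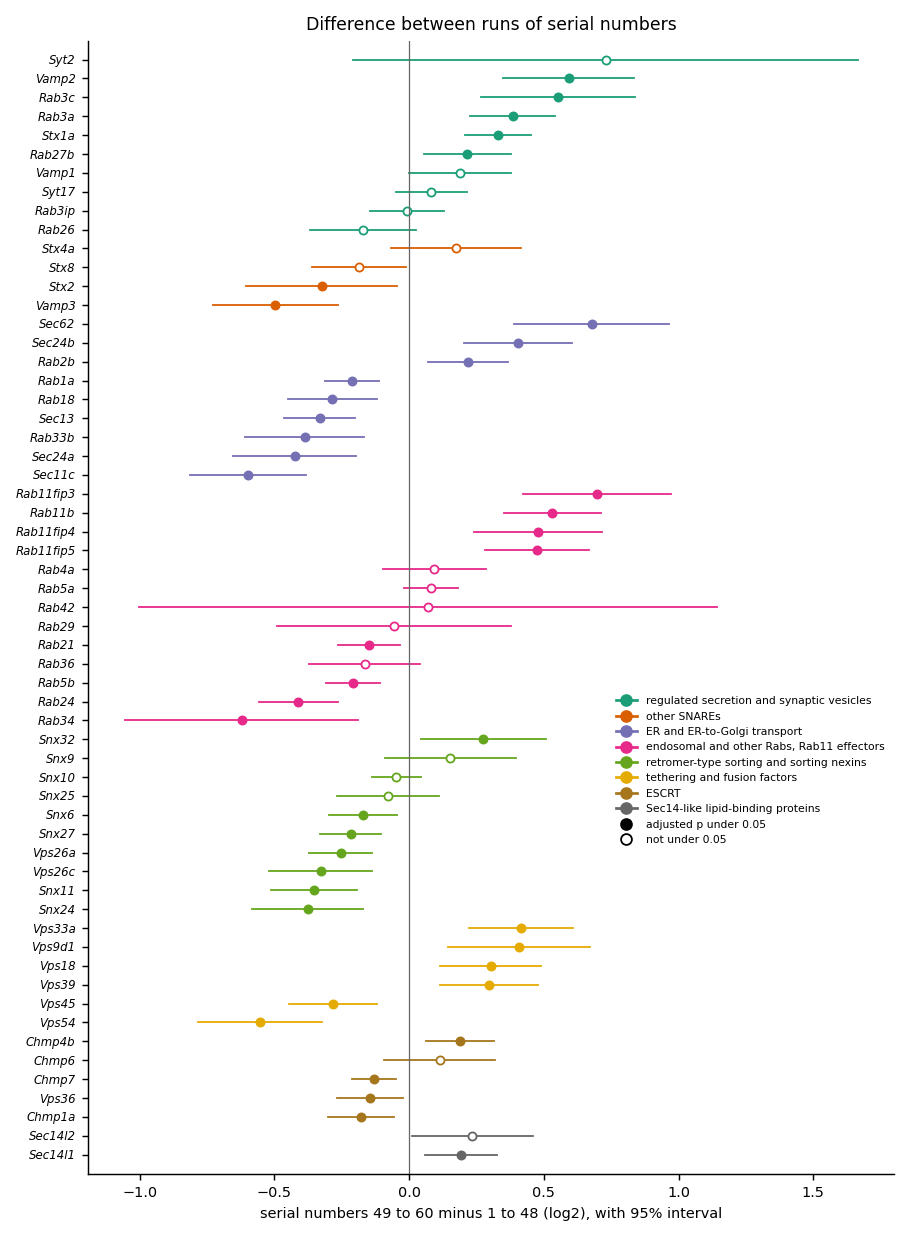
Difference of 59 of the 60 genes between the libraries numbered 49 to 60 and those numbered 1 to 48, in log2 units with its 95% interval, in rows grouped by role; filled points have an adjusted p under 0.05. Most of regulated secretion and the Rab11 genes lie to the right (higher), most sorting nexins and ER genes to the left (lower, a side that all 6 lower sorting nexin and retromer genes and 4 of the 6 lower ER genes left with reads scaled to library totals), and 42 of 59 points are filled.

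Some markers of cell types moved with the same split. Of the marker genes reported, both for glutamatergic neurons and 3 of 5 for GABAergic neurons (Gad2, Npy and Slc32a1) were higher in the libraries numbered 49 to 60. So was Penk, 1 of the 2 genes from the striatal list, which were not read as a measure of striatal tissue. For microglia 1 of 2 (P2ry12) was lower, and 0 of 4 for astrocytes was called. Not every marker tested is reported, so these counts show no contrast between neurons and glia. The summed glutamatergic markers were at 33120 to 41307 scaled reads in the libraries numbered 49 to 60, against 21531 to 36212 in the others. The part of these markers in the differences of the trafficking genes was not tested. None of these markers was called in the 24 h rhythm or in dark minus light.

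Genes of other parts of the machinery were taken from 7 lists that leave out the name families above. In the 24 h rhythm 0 genes were called of 18 SNARE partners and release factors, 11 synaptic vesicle membrane proteins, 16 Rab regulators and effectors, 18 clathrin and endocytosis genes, 19 tethers and Golgi transport genes, 8 ER exit and translocation genes, and 8 ESCRT, retromer and WASH partners. With the same limma fit at an unadjusted p under 0.05 the lists held 0, 1, 2, 1, 1, 0 and 3 genes. The smallest adjusted p was that of Tmed10, a cargo receptor between ER and Golgi, with an amplitude of 0.093 ± 0.025, a peak at ZT5.11 and 0.0835 as its adjusted p (limma, Benjamini-Hochberg). Exoc2, of the exocyst tether, had 0.080 ± 0.035.

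The other genes of smallest p in these lists were as follows. Chml, an escort protein for Rab prenylation, had 0.19 ± 0.06 at ZT6.60 (adjusted p = 0.155, limma, Benjamini-Hochberg), and Rilpl1 had 0.19 ± 0.06 at ZT21.3. Gga2, a clathrin adaptor of the trans-Golgi, had 0.11 ± 0.03 at ZT13.9 (0.177), and Hip1r, which links clathrin to actin, had 0.21 ± 0.09. Scamp1, a carrier protein of secretory membranes, had 0.053 ± 0.028. Plekhm1 and Mon1a, both of the late endosome and lysosome, had 0.25 ± 0.08 at ZT19.2 and 0.14 ± 0.05 at ZT20.5, each with an adjusted p of 0.259. Stxbp4 and Gosr1, from the list of SNARE partners, had 0.12 ± 0.05 and 0.085 ± 0.041. Spcs3, of the signal peptidase, had 0.11 ± 0.05 and Get4, of tail-anchored protein insertion, 0.075 ± 0.047. In the comparison of serial numbers, where 23% of all genes were higher and 31% lower, 9 of 18 SNARE partners were higher and 2 lower, and 7 of 11 synaptic vesicle membrane genes were higher and 2 lower. Of 16 Rab regulators 4 were higher and 7 lower, of 18 clathrin and endocytosis genes 7 and 5, and of 19 tethers and Golgi transport genes 6 and 5. Of 8 ER exit and translocation genes 2 were higher and 4 lower, and of 8 ESCRT, retromer and WASH partners 3 and 1.

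The letters before the start of each gene were read for motifs of clock output and of the stress and lysosomal programmes. RefSeq promoters of GRCm38.p6 were matched by symbol for 41 of the 60 genes, and the 250 bases before each start were searched on both strands. Sec14l1, the gene with the lowest rhythm p, and Rab1a, the next such gene with an entry, are shown whole, on the plus strand of chr11:117114918-117115167 and chr11:20201162-20201411, in lower case as no motif searched was found in them. Syt17 and Snx27 had no entry.
Sec14l1: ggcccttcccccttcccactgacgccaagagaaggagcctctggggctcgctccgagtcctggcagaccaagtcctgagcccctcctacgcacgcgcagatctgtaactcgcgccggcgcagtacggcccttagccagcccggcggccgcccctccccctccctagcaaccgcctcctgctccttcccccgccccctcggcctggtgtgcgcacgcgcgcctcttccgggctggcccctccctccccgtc
Rab1a: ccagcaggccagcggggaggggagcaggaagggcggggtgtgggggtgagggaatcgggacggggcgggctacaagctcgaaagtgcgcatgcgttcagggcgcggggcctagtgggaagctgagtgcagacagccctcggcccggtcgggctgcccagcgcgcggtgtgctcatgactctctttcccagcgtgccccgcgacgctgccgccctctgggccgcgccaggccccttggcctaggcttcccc
A second RefSeq start of Sec14l1, within the gene, also held none of the motifs before it. Both printed stretches had 72.4% G and C and 23 CG dinucleotides.

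TCACGTGA is the palindromic core of the element bound by the lysosomal regulator TFEB, and contains the E-box CACGTG. It lay before the start of 5 of the 41 genes (12.2%), against 0.907% of the 27025 genes of the promoter table. The 5 were Sec62, Vps33a, Vps26a, Rab21 and Rab5a. Stretches around it are printed from the strand of each gene, with the motif in capitals. They lie at chr3:30792823-30792870 (plus), chr5:123573016-123573064 (minus), chr10:62486961-62487008 (minus), chr10:115315595-115315642 (minus) and chr17:53479118-53479165 (plus).
Sec62: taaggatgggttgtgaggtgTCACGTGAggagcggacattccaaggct
Vps33a: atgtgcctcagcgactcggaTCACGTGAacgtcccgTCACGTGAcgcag
Vps26a: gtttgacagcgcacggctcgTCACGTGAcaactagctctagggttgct
Rab21: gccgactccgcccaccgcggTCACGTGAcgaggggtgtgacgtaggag
Rab5a: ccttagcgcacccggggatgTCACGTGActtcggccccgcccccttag
Vps33a held the motif 2 times, with its last base 22 and 6 bases before the start of the gene, and Vps26a held it once more before another start. The same 5 genes were the only ones of the 41 with a CACGTG (12.2%), whereas 6.86% of all genes had a CACGTG. The 41 genes differed from the table in base composition too, with a median of 63.2% G and C and 19 CG dinucleotides in a stretch, against 52.4% and 6, and the part of this in the count was not tested.

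None of the 5 genes with the motif was called in the 24 h rhythm, where their adjusted p-values were 0.832 to 0.996 (limma, Benjamini-Hochberg). In the comparison of serial numbers Sec62 and Vps33a were higher, Vps26a and Rab21 lower, and Rab5a, at 0.080, was not called. These calls depend on the scaling. With library totals Rab5a was called higher, at 0.50 (adjusted p = 0.00565, limma, Benjamini-Hochberg), and Vps26a and Rab21 were positive and not called. TGACGTCA, the cAMP response element, was found for Rab11fip3 and Rab5a (4.88%, against 1.77% of all genes), and the D-box letters TTATGTAA for Rab29 and Vps36 (4.88%, against 0.977%). The D-box letters TTACGTAA, the letters TGACGTGG and the endoplasmic reticulum stress element were in none of the 41. A match is only these letters in this window.

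Some of the genes share exons with a neighbour, and whether the counting used the strand is not given. Rab24 shares 62.4% of its exonic length with Prelid1 and Rab2b 59.3% with Gm43766, both on the opposite strand. Unless the counting used the strand, reads of the shared part cannot be assigned to either gene. Whether such reads were counted or left out was not tested. On the same strand, Rab26 shares 9.36% with Traf7, Rab18 4.45% with AC131796.2 and Rab11fip5 1.34% with Mir705. Rab33b, Snx11, Snx32 and Sec62 share 11.7% to 18.7% with genes of the opposite strand.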

How the data were processed

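Per the labels' protocols, extraction used a Qiagen RNeasy kit (Plus Micro) and library preparation a stranded total RNA kit of Takara (SMART). FastQC, HTSeq, DESeq2 and GRCm38 are named, without versions, per the submitters' processing notes; the aligner, the annotation release and the strand setting are not given in the sources used here. The deposited values are log2 of a scaled read number plus 1. Whole reads were recovered from them (every value tested at low read numbers within 0.05 of a whole number) and served for depth, for the filter of at least 10 reads in at least 4 libraries, and for alternatives. The precision of each value is limited by a depth of 1009789 to 4253935 reads outside the most abundant noncoding genes.

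Groups came from the titles, and replicates were numbered by runs of 12 serial numbers. Symbols, positions and exonic lengths came from GENCODE M21 (GRCm38), with 4465 of 4484 genes matched. Models were fitted with limma 3.58.1 in R 4.3.3 (intensity trend, robust fit) on the deposited log2 values and adjusted by Benjamini-Hochberg over 4273 genes at 0.05. They were checked on simulated data of independent genes without a difference between runs of serial numbers. That check therefore does not cover such a difference. A 24 h rhythm was tested on the sine and cosine terms together, with sex in the model. Alternatives were limma voom, TMM factors, scaling by library totals, a pseudocount of 8, other filters, no trend, a replicate block, the first 2 principal components, leaving out each library, and leaving out serial numbers 49 to 60; using those alone was added after seeing the data.

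Genes named were, in the 24 h rhythm, the called members, then members by rising p up to 20, and the most abundant of each family. In other comparisons they were the called members (the 12 largest where more) or the 3 of smallest p, and in the other trafficking lists the 2 of smallest p; exceptions are said to be such or stand for their role. Members and lists were chosen with earlier results of these data known. Some genes are not reported here by name, and marker sums and figures leave them out.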

Additional observations from a re-analysis of the deposited data

Results flagged for a closer look

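A library was looked for that stood far from the others of its time of day, in 66 sets of 9 or 10 libraries over 11 genes; 5 were found, and chance gives about 1 in 20. Chmp4b was lowest in ZT14 male replicate 4 at 10.93, with the nearest library at 11.3, and lowest in ZT18 male replicate 4 at 10.69, with the nearest at 11.22. Rab3a was lowest in ZT6 male replicate 4 at 12.01, with the nearest at 12.63. Vamp2 was lowest in ZT18 male replicate 4 at 12.9, with the nearest at 13.49. Vps26a was highest in ZT18 female replicate 2 at 11.18, with the nearest at 10.89.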

How the results depend on the processing

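The 24 h rhythm called 2 of the 60 genes, and with each library left out in turn 1 to 2. It called 0 with reads scaled to library totals, 9 with the first 2 components, 1 without serial numbers 49 to 60 (Sec14l1, among 50 genes in all) and 0 with those numbers alone, where 11 libraries were fitted. Limma voom, TMM factors, a pseudocount of 8, both other filters and the fit without a trend each called Sec14l1 and Syt17. The test of any difference between times called 1 gene, with each library left out 0 to 2, with library totals 0, with the components 3 (Sec14l1, Snx27 and Syt17) and without serial numbers 49 to 60 0. With the components males had 2 calls (Sec14l1 and Syt17), females 2 (Sec14l1 and Sec24a) and dark minus light 1 (Sec24a), where there were 0. Leaving out each library gave 0 to 0 calls in every other comparison and 39 to 44 for the serial numbers.

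Same-numbered libraries of other groups, which share a run of serial numbers, deviated together on average but not in every pair: over 319 pairs the mean correlation was 0.107 and the lowest -0.494, with 148 over 0.1, against a mean of -0.026 over 1276 pairs of other numbers, 310 of them over 0.1. With the replicate block the 24 h rhythm called 3 genes, Snx27 (adjusted p = 0.0301, limma) beside Sec14l1 and Syt17, and the test between times called 2, Sec14l1 and Syt17.

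The fitted phase turned by more than 6 h in genes that were not called. Rab3a had an amplitude of 0.025 with library totals and 0.0019 without ZT2 female replicate 4 (0.0019 to 0.0303 over the libraries left out), Vamp2 0.0100 with the components, and Rab1a in females 0.0996 with library totals. With serial numbers 49 to 60 alone these were Vps9d1 (0.181), Rab34 (0.175), Rab5a (0.033) and Vamp2 (0.066). The cause was not tested. Rare genes such as Syt2 and Rab42 are limited by depth.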
